A study of Homo sapiens with 6 samples.

Results

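The NDRG family (N-myc downstream-regulated genes NDRG1, NDRG2, NDRG3 and NDRG4) was examined together with SGK1 and SGK3, which encode kinases that phosphorylate the NDRG1 protein. The 6 genes were chosen by name, with earlier results of the same GSK-A1 against DMSO comparison in view, from the 63140 genes of the count table. Their differences between these groups are therefore given as a description, without a test. All 6 passed the filter on low counts that left 16754 genes for testing. The samples were HEK293 cells, an established human line derived from embryonic kidney. One group of confluent cells was exposed for 24 h to GSK-A1 at 100 nM (3 libraries), and the control group was given the solvent DMSO (3 libraries). GSK-A1 inhibits phosphatidylinositol 4-kinase alpha (PI4KA), the enzyme that makes phosphatidylinositol 4-phosphate at the plasma membrane. Both groups were the same line, and the labels name no other agent or genotype. The labels call the replicates biological but do not say that they were grown separately, so p-values measure the spread between these libraries.

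NDRG proteins share an alpha/beta-hydrolase fold that is thought to lack catalytic activity. NDRG1 is induced by hypoxia, iron depletion, metals and other stresses, is repressed by MYC and MYCN, and is the gene mutated in Charcot-Marie-Tooth disease type 4D. SGK kinases are relatives of AKT that are activated by PDPK1 and by mTOR complex 2, and phosphorylation of NDRG1 is widely used as a readout of their activity. The counts measure transcripts only, so neither phosphorylation nor protein was observed here.

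The genes lie on 5 chromosomes. In the GENCODE 29 annotation of GRCh38, NDRG1 (ENSG00000104419) spans chr8:133237171-133302022 on the minus strand. NDRG2 (ENSG00000165795) spans chr14:21016763-21070872 on the minus strand, and NDRG3 (ENSG00000101079) spans chr20:36651766-36746078 on the minus strand. NDRG4 (ENSG00000103034) lies at chr16:58462846-58513628 on the plus strand. SGK1 (ENSG00000118515) is at chr6:134169246-134318112 on the minus strand, and SGK3 (ENSG00000104205) is at chr8:66667596-66862022 on the plus strand. No stretch of 50 bases was shared between the longest transcripts of any pair of the 6 genes (0.00% of stretches), so reads of that length did not need to be split among them. NDRG2 overlaps TPPP2 on the other strand over 3.13% of its exonic bases, and SGK3 overlaps C8orf44 on its own strand over 6.04%. The strand setting of the counting is not given in the sources used here, so reads in these overlaps cannot be assigned with certainty.

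Library totals ranged from 33040178 to 47777233 counts. GSK-A1 replicate 2 stood apart from the rest of its group: chi-square per gene was 10.98 and 15.52 against GSK-A1 replicates 1 and 3, compared with 2.88 between those replicates and 1.84 to 3.14 between DMSO libraries. Values without this library are given below for each of the 6 genes. Summed levels of 9 HEK293 markers ranged from 2130 to 2206 CPM (counts scaled by the TMM-normalised library total) with DMSO and from 2277 to 2475 CPM with GSK-A1. Among them VIM and NEFL averaged 1085 and 715 CPM with DMSO, while NEFM (0.142 CPM) and INA (0.00695 CPM) were near 0. Markers of leukocytes, endothelium, keratinocytes and hepatocytes summed to at most 0.901, 0.242, 0.0879 and 0.286 CPM in any library, with KRT5 and TTR at 0. All 5 fibroblast markers had counts, and their sum moved with the treatment, from 18.8 to 20.7 CPM with DMSO to 12.5 to 14.5 CPM with GSK-A1. COL3A1 averaged 9.69 CPM with DMSO and 5.50 CPM with GSK-A1, while DCN (0.185 CPM) and LUM (0.205 CPM) were near 0 already with DMSO. The part of this shift in the results below was not tested.

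NDRG1 was the most abundant of the 6 transcripts and the one that changed most. DMSO replicates 1 to 3 gave 319, 308 and 312 CPM, and GSK-A1 replicates 1 to 3 gave 555, 539 and 548 CPM. The lowest GSK-A1 library was far above the highest DMSO library. The means were 313 ± 5.81 and 547 ± 8.01 CPM (SD, n = 3). On the log2 scale NDRG1 differed by 0.81 ± 0.033 (SE; 95% interval 0.74 to 0.88), or 1.75-fold. These values rested on 10334 to 25873 counts per library. Variation among replicates was small, with a coefficient of variation of 1.85% with DMSO and 1.46% with GSK-A1. The gain of 234 CPM placed NDRG1 at rank 5 of 16754 tested genes by absolute gain, whereas 133 genes had a larger log2 fold change. Ordered by CPM, NDRG1 moved from rank 429 with DMSO to rank 206 with GSK-A1.

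**Figure D1:**
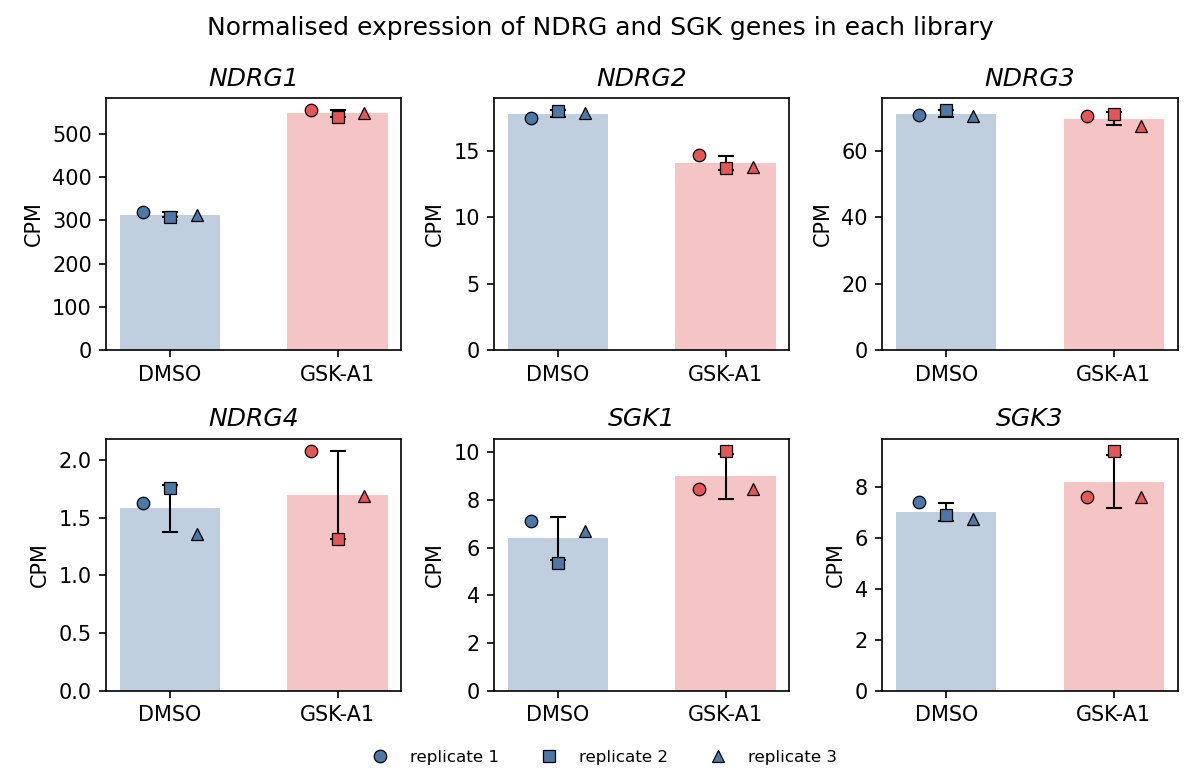
Normalised expression (CPM, vertical axis from 0 and scaled separately in each panel) of NDRG1 to NDRG4, SGK1 and SGK3 in the 3 DMSO and 3 GSK-A1 libraries. Bars are means, error bars are SD and each marker is a library. NDRG1, SGK1 and, by a small margin, SGK3 were higher and NDRG2 was lower in every GSK-A1 library than in any DMSO library. NDRG3 and NDRG4 overlapped between the groups.

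NDRG2, a family member best known from brain and as a restraint on cell growth, moved the other way. Its level was 17.5, 18.0 and 17.9 CPM across DMSO replicates 1 to 3, and GSK-A1 replicates 1 to 3 had 14.7, 13.7 and 13.8 CPM. Every GSK-A1 library lay below every DMSO library. The means were 17.8 ± 0.270 and 14.1 ± 0.508 CPM (SD, n = 3), and the log2 fold change was -0.34 ± 0.059 (SE, with a 95% interval of -0.46 to -0.21), or 0.792-fold. Replicates of NDRG2 varied by 1.52% with DMSO and 3.61% with GSK-A1. This is less than the 3.68% and 4.31% that read counting alone would give at 469 to 839 counts per library, so these SDs are likely too small.

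Promoter windows from RefSeq (GRCh38.p14) were searched for 3 of the 6 genes, with 5 starts for NDRG2, 4 for NDRG4 and 3 for SGK1. Each window was the 250 bases before a start, and the promoters of the other genes were not searched. The first of the 5 NDRG2 windows is shown to be set against the SGK1 window further below. It lies at chr14:21025062-21025311 and is printed 5′ to 3′ on the minus strand, with GC boxes (GGGCGG, the core bound by SP1 and its relatives) in capitals on either strand.
NDRG2 start 1: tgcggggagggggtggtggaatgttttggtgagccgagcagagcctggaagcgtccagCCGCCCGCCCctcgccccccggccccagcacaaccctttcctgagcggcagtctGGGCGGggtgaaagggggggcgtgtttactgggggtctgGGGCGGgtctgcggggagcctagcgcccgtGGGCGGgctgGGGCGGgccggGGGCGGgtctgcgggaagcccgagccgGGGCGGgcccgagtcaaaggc
It held 8 GC boxes, counting overlapping ones, and 74.8% of its bases were G or C, while the windows of starts 4 and 5 held 0. The motif itself was common: 42.64% of 35116 windows of this length held at least 1 GC box. Neither of the EGR sites searched (GCGTGGGCG and GCGGGGGCG) was found in any NDRG2 window, nor was the HIF core ACGTG or the E-box CACGTG. Gene-level counts do not say which start was in use.

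NDRG3, whose protein is known to accumulate with lactate in hypoxia, and NDRG4, known mainly from heart and brain, overlapped between the groups. NDRG3 measured 70.8, 72.2 and 70.3 CPM across DMSO replicates 1 to 3, with 70.5, 70.9 and 67.5 CPM across GSK-A1 replicates 1 to 3. Its means were 71.1 ± 1.00 and 69.6 ± 1.88 CPM (SD, n = 3). The 95% interval of the log2 fold change of NDRG3, -0.03 ± 0.040 (SE), ran from -0.12 to 0.055, so it covered neither the rise of NDRG1 nor the fall of NDRG2. NDRG4 was scarce: DMSO replicates 1 to 3 had 1.63, 1.76 and 1.36 CPM, and GSK-A1 replicates 1 to 3 had 2.08, 1.32 and 1.69 CPM. Only 45 to 97 counts per library lay behind these NDRG4 values. The NDRG4 means of 1.58 ± 0.204 and 1.70 ± 0.382 CPM (SD, n = 3) overlapped within their spread. Its log2 fold change of 0.11 ± 0.17 (SE) had a 95% interval of -0.25 to 0.48, and the sign turned to -0.08 without GSK-A1 replicate 1. NDRG4 varied by 12.9% among DMSO and 22.5% among GSK-A1 libraries, beside 12.5% and 12.6% from read counting alone.

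SGK1, a kinase induced by glucocorticoids, serum and cell shrinkage, was higher with GSK-A1. DMSO replicates 1 to 3 showed 7.11, 5.36 and 6.70 CPM, whereas GSK-A1 replicates 1 to 3 showed 8.45, 10.1 and 8.46 CPM. DMSO replicate 2 was the lowest library and GSK-A1 replicate 2 the highest, and the groups did not overlap. The means of 6.39 ± 0.914 and 9.00 ± 0.935 CPM (SD, n = 3) corresponded to a difference of 0.49 ± 0.11 on the log2 scale (SE; 95% interval 0.27 to 0.71), or 1.40-fold. Replicates of SGK1 varied by 14.3% with DMSO and 10.4% with GSK-A1, more than the 6.18% and 5.39% that read counting alone would give at 222 to 394 counts per library.

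SGK3 differs from SGK1 in carrying a PX domain that binds phosphatidylinositol 3-phosphate on endosomes. Across DMSO replicates 1 to 3 it measured 7.40, 6.90 and 6.73 CPM, and across GSK-A1 replicates 1 to 3 it measured 7.62, 9.43 and 7.60 CPM. GSK-A1 replicates 1 and 3 lay just above the highest DMSO library, and GSK-A1 replicate 2 stood well above both. The means were 7.01 ± 0.350 and 8.22 ± 1.05 CPM (SD, n = 3). The log2 fold change was 0.22 ± 0.092 (SE; 95% interval 0.020 to 0.41), and without GSK-A1 replicate 2 it was 0.12.

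The SGK1 window at chr6:134174867-134175116 is shown because it held matches to an EGR site that the other SGK1 windows lacked. It is printed 5′ to 3′ on the minus strand, with matches to the EGR site GCGGGGGCG, here on the opposite strand, in capitals.
SGK1 start 1: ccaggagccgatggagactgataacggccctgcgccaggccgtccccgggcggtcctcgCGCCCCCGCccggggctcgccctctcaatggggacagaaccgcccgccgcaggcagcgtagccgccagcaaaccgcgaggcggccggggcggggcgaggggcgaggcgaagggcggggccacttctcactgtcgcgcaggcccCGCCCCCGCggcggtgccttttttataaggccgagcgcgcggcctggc
It held 2 of these EGR sites, against 4.72% of the 35116 windows with at least 1. The first NDRG4 window, of a gene whose groups overlapped, held 1 such site as well. The other form, GCGTGGGCG, was in neither window (0.72% of windows held it). It also held 6 GC boxes and 1 TATA box (TATAAA, in 10.72% of windows), and 76.0% of its bases were G or C, close to the NDRG2 window above. The other SGK1 windows, at chr6:134177862-134178111 and chr6:134318113-134318362, were 41.6% and 33.6% G or C and had no GC box. Each of them also held 1 TATA box. The last of them held 1 HIF core, which 18.51% of all windows held. The steroid receptor core AGAACA (12.39% of windows) and the E-box CACGTG (6.34%) were in none of the 12 windows of the 3 genes. Motifs were searched on both strands and could overlap each other, and a match describes the letters only.

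By the threshold applied to all genes, an adjusted p under 0.05 in edgeR's quasi-likelihood test, 3 of the 6 genes were called. The background was high: 22.9% of the 16754 genes tested were called, 12.0% as higher with GSK-A1 and 10.9% as lower. Called higher were NDRG1 and SGK1, and called lower was NDRG2. The groups did not overlap for 4 of the 6 genes, SGK3 being the addition, beside 40.5% of all genes (20.2% higher and 20.4% lower with GSK-A1). Since the same comparison chose the genes, nothing is read from these counts. The median log2 fold change over all genes tested was -0.01, and the median of its absolute value was 0.12.

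The estimates of NDRG1 and NDRG2 moved little between settings, and that of SGK1 moved more. This describes the 3 called genes and is no support for a direction known when the genes were chosen. Over 17 alternative settings the log2 fold change of NDRG1 ranged from 0.77 to 0.85, that of NDRG2 from -0.38 to -0.27 and that of SGK1 from 0.37 to 0.59. The wider range of SGK1 came from leaving out DMSO replicate 2 (0.37) or DMSO replicate 1 (0.59). Without GSK-A1 replicate 2, the log2 fold changes were 0.82 for NDRG1, -0.31 for NDRG2, -0.04 for NDRG3, 0.26 for NDRG4, 0.41 for SGK1 and 0.12 for SGK3.

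**Figure D2:**
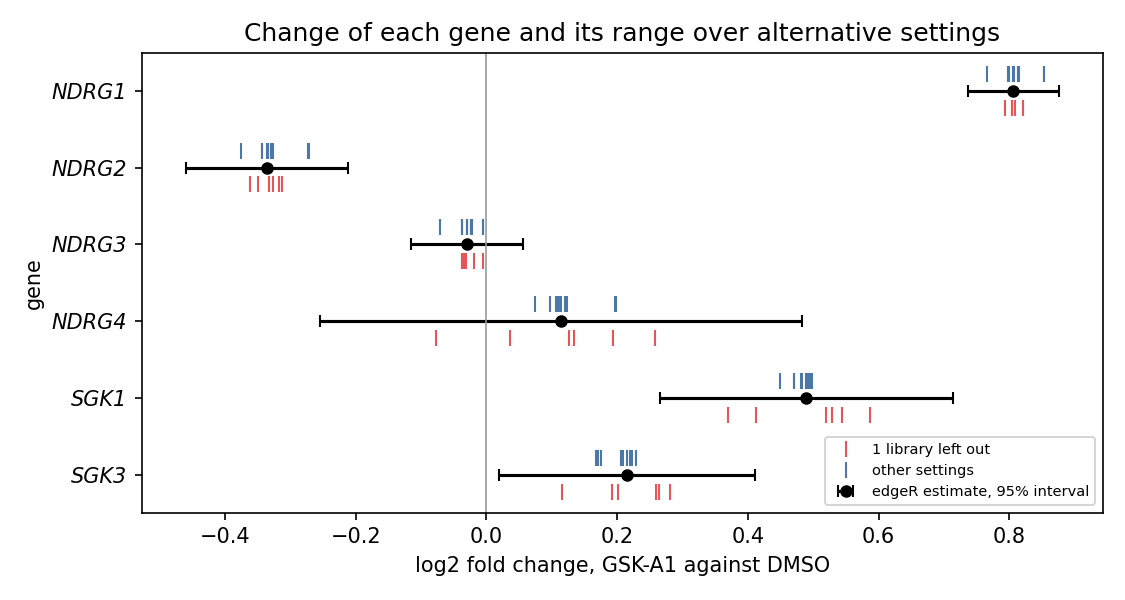
Log2 fold change of each gene (horizontal axis, GSK-A1 against DMSO) with its 95% interval from edgeR (black) and its estimates under other settings (blue ticks) and with 1 library left out (red ticks). The ticks of NDRG1, NDRG2 and SGK1 stay on their side of 0, and those of NDRG4 lie on both sides, from -0.08 to 0.26.

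Levels of different genes were compared per length, as CPM per kilobase of the longest annotated transcript. NDRG1 led with 78.6 ± 1.46 CPM per kilobase with DMSO (SD, n = 3), followed by NDRG3 (23.9 ± 0.336), NDRG2 (6.18 ± 0.0939), SGK3 (1.67 ± 0.0836), SGK1 (1.17 ± 0.167) and NDRG4 (0.309 ± 0.0399). No neighbours in this order overlapped over the DMSO libraries, the closest being SGK3 and SGK1 with means 1.43-fold apart. With GSK-A1 the order was the same, but SGK3 (1.81 to 2.25 CPM per kilobase) and SGK1 (1.54 to 1.84) overlapped. The order of these 2 kinases depended on the length used: scaled by the longest coding transcript, SGK1 (2.00 ± 0.285 with DMSO) was above SGK3 (1.67 ± 0.0836), with DMSO ranges of 1.68 to 2.22 and 1.61 to 1.77 that overlapped.

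NDRG1 made up 72.7%, 71.5% and 72.3% of the summed NDRG signal per kilobase in DMSO replicates 1 to 3 and 82.7%, 82.4% and 83.2% in GSK-A1 replicates 1 to 3. The share was thus higher by 10.6 percentage points in means of 72.1% ± 0.600 and 82.8% ± 0.389 (SD, n = 3), and the libraries of the groups did not overlap. NDRG3 went from 21.9% to 14.1% of the sum although its own level hardly differed, NDRG2 from 5.67% to 2.94%, and NDRG4 from 0.284% to 0.199%. The summed level of the 4 genes was 109 ± 1.21 CPM per kilobase with DMSO and 166 ± 2.24 with GSK-A1. For the kinases, SGK1 was 41.0% ± 3.21 of SGK1 plus SGK3 with DMSO and 45.6% ± 0.568 with GSK-A1, and its 3 shares with DMSO (42.4%, 37.3% and 43.2%) lay below the 3 with GSK-A1 (45.9%, 45.0% and 46.0%). These shares depend on the length used. Scaled by the union of all annotated exons, mean NDRG1 and NDRG3 were 31.9 and 21.9 CPM per kilobase with DMSO. With GSK-A1 they were 55.7 and 21.4, so NDRG1 made up less of the sum in both groups than given above. Scaled by the longest coding transcript, mean SGK1 was above mean SGK3 with DMSO (2.00 against 1.67 CPM per kilobase) and with GSK-A1 (2.81 against 1.96).

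**Figure D3:**
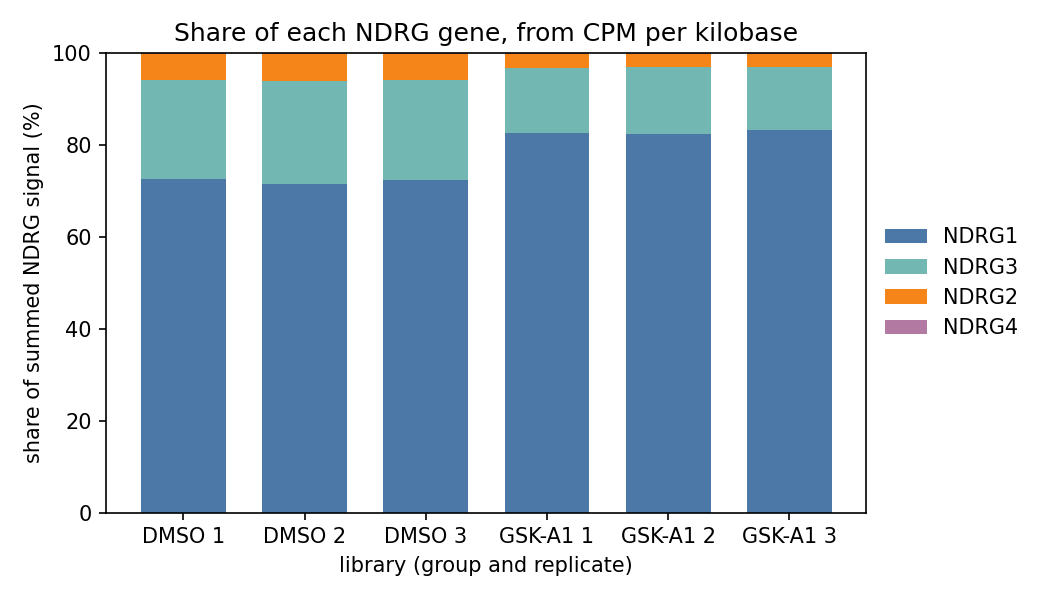
Share of each NDRG gene in the summed NDRG1 to NDRG4 signal (%, vertical axis, from CPM per kilobase) in each of the 6 libraries. NDRG1 fills 71.5% to 72.7% of the bar in the DMSO libraries and 82.4% to 83.2% in the GSK-A1 libraries, and NDRG4 is too scarce to be seen.

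Genes that act with the NDRG and SGK proteins were read from lists, in the same fit and beside the same background of 22.9% called. The lists too were chosen with earlier results of these data known, so their calls and p-values are a description. Without DMSO replicates 1, 2 and 3 in turn, the share of all genes called was 12.9%, 13.2% and 12.7%. Without GSK-A1 replicates 1, 2 and 3 in turn, it was 15.9%, 28.1% and 21.9%. It was 24% with upper-quartile factors and 22.5% with library totals alone. Of 15 relatives and activators of the SGK kinases, 3 rose, 2 fell and 10 did not pass the test, with a median log2 fold change of -0.03. RICTOR, the subunit that defines mTOR complex 2, rose by 0.31 ± 0.047 (SE; edgeR adjusted p = 0.000296). The subunits MTOR and MLST8, common to both mTOR complexes, fell by 0.15 ± 0.038 and 0.22 ± 0.039 (edgeR adjusted p = 0.00955 and 0.000877), and the MTOR call was lost without DMSO replicate 1 or 3. With a GC correction the log2 fold change of MLST8 was -0.12. PHLPP2, a phosphatase that opposes AKT, rose by 0.15 (edgeR adjusted p = 0.0294), a call lost with upper-quartile factors and without GSK-A1 replicate 1 or either of DMSO replicates 2 and 3. PDPK1, the activating kinase of SGK1 and SGK3, stood at 0.02 ± 0.048 (edgeR adjusted p = 0.777), with 24.87% of its 50-base stretches shared with another annotated gene. The third family kinase, SGK2, was barely present (0.592 CPM with DMSO and 0.416 CPM with GSK-A1; edgeR adjusted p = 0.259). Without DMSO replicate 3 the list had 3 calls in place of 5.

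Among 13 tested genes of 14 whose products SGK kinases phosphorylate or regulate, 2 rose, 1 fell and 10 did not pass, with a median of 0.04. NEDD4L, the ubiquitin ligase that SGK1 inhibits, rose from 48.4 to 62.6 CPM, by 0.37 ± 0.044 (edgeR adjusted p = 2.41e-05). PIKFYVE, a lipid kinase, rose by 0.15 (edgeR adjusted p = 0.0244), and TSC2, a brake on mTOR complex 1, fell by 0.21 (edgeR adjusted p = 0.00871). The PIKFYVE call was lost with upper-quartile factors or without any 1 of the DMSO libraries, and the TSC2 call without DMSO replicate 3, which left 1 call in the list. The log2 fold change of TSC2 was -0.12 with a GC correction and -0.14 without GSK-A1 replicate 2. NEDD4L kept its call under every alternative run.

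Of 14 regulators of NDRG1, 3 rose, 1 fell and 10 did not pass, with a median of -0.07. EGR1, an immediate early factor reported to act on NDRG1, had the largest change in any of the lists, from 11.2 to 52.1 CPM, a rise of 2.22 ± 0.064 (edgeR adjusted p = 4.77e-13). MYC, a repressor of NDRG1, rose as well, from 172 to 208 CPM and by 0.28 ± 0.035 (edgeR adjusted p = 4.92e-05). SP1, a factor that binds GC boxes, rose by 0.17 (edgeR adjusted p = 0.003). MYCN was near the limit of detection, at 0.327 CPM with DMSO and 0.251 CPM with GSK-A1 (edgeR adjusted p = 0.449). The hypoxia factors HIF1A (-0.08 ± 0.039; edgeR adjusted p = 0.157) and EPAS1 (-0.14 ± 0.088; edgeR adjusted p = 0.272) did not pass, although HIF1A passed as lower with upper-quartile factors, with a GC correction and without GSK-A1 replicate 2. The last of these settings raised the calls in the list from 4 to 7.

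**Figure D4:**
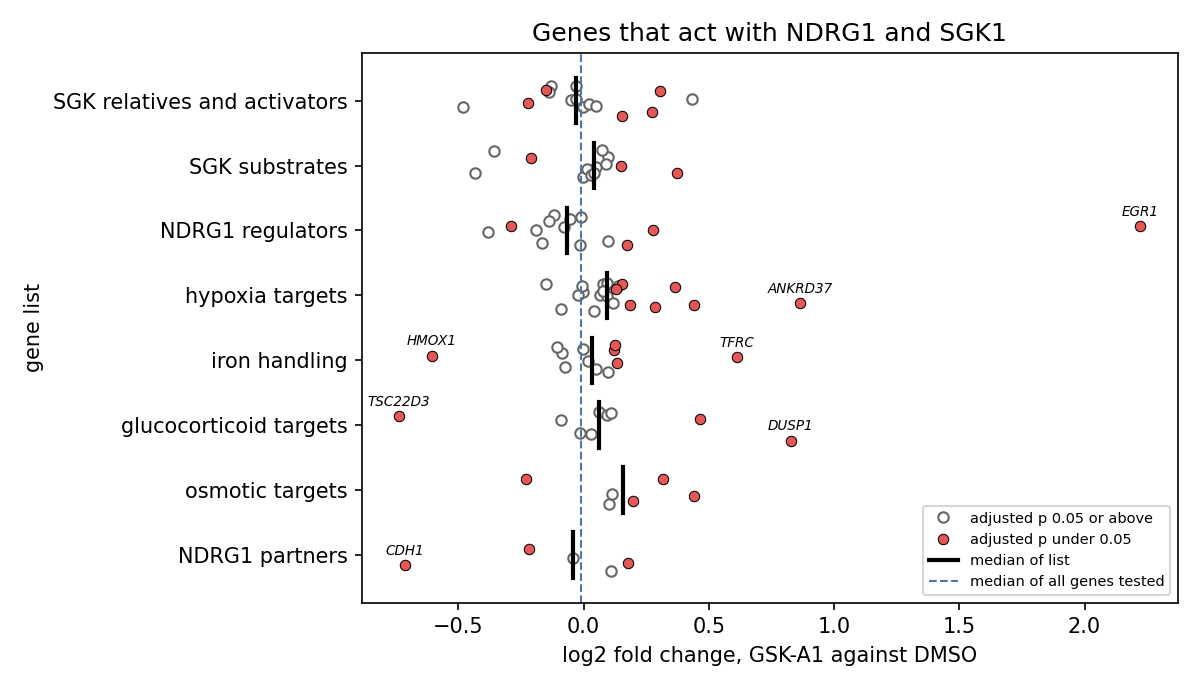
Log2 fold change (horizontal axis, GSK-A1 against DMSO) of every tested gene in 8 lists around NDRG1 and SGK1 (rows), with filled points at an edgeR adjusted p under 0.05, a black bar at each list's median and a dashed line at the median of all genes tested. EGR1 stands alone at 2.22, and no called hypoxia target lies below 0.

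NDRG1 responds to low oxygen and low iron, so other genes with these responses were read beside it. Of 21 tested hypoxia targets (22 listed), 7 rose, none fell and 14 did not pass, with a median of 0.09. At an unadjusted p under 0.05, 10 were higher and 0 lower, a count for which the share over all genes was not taken. DESeq2 called 6 higher and 0 lower, beside 18.5% of all genes called. For limma-voom it was 8 higher and 0 lower, beside 22.5%. The same genes and libraries lie behind all these counts, so they are no separate support. With 2 settings 1 gene was called lower: 10 rose and 1 fell without GSK-A1 replicate 2, and 12 rose and 1 fell with a GC correction and replicate block together. P4HA2, a collagen prolyl hydroxylase, rose from 44.4 to 60.3 CPM, by 0.44 ± 0.047 (edgeR adjusted p = 8.43e-06). ERO1A, an oxidase of protein folding, rose by 0.36 ± 0.051 (edgeR adjusted p = 0.000152), and HK2, a glycolytic kinase, rose by 0.29 ± 0.047 (edgeR adjusted p = 0.000491). ANKRD37, singled out after its values were seen, had the largest change of the list, 0.86 ± 0.23 (edgeR adjusted p = 0.0119), at only 0.537 CPM with DMSO and with UFSP2 on the opposite strand over 35.23% of its exonic length. The number of calls depended on the libraries: it was lowest, 3, without DMSO replicate 1 and highest, 11, without GSK-A1 replicate 2. It was 4 without DMSO replicate 3 or GSK-A1 replicate 1. The share of all genes called moved the same way, at 12.9%, 28.1%, 12.7% and 15.9% in the order these libraries are named. A GC correction alone gave 11 calls, all higher, beside 26.2% of all genes called (2858 higher and 1527 lower). With the replicate block added to it, the share of all genes called was 27.3%.

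In iron handling, 4 of 12 genes rose, 1 fell and 7 did not pass, with a median of 0.03. TFRC, the transferrin receptor, rose from 151 to 231 CPM, by 0.61 ± 0.045 (edgeR adjusted p = 1.67e-07). HMOX1, which releases iron from heme, fell from 20.1 to 13.2 CPM, by 0.61 ± 0.097 (edgeR adjusted p = 0.000968). STEAP3, an iron reductase, and NCOA4, the ferritinophagy receptor, rose by 0.13 and 0.12 (edgeR adjusted p = 0.0248 and 0.0329), calls lost without any 1 DMSO library or with upper-quartile factors (STEAP3 also without GSK-A1 replicate 1, NCOA4 also with library totals alone). The list had 2 calls without any 1 DMSO library and 8 without GSK-A1 replicate 2, and its count also moved by over 1.5 times without GSK-A1 replicate 1. With upper-quartile factors 1 rose and 2 fell, and with library totals alone 2 rose and 1 fell. TFRC and HMOX1 kept their calls under every alternative run.

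SGK1 is a textbook target of glucocorticoids and of osmotic stress. Of 9 tested glucocorticoid genes (10 listed), 2 rose, 1 fell and 6 did not pass, with a median of 0.06. DUSP1, a MAP kinase phosphatase, rose from 55.7 to 98.9 CPM, by 0.83 ± 0.040 (edgeR adjusted p = 4.66e-10), and ERRFI1, a feedback inhibitor of the EGF receptor, rose by 0.46 (edgeR adjusted p = 4.73e-06). TSC22D3, the glucocorticoid-induced leucine zipper gene, fell from 15.5 to 9.25 CPM, by 0.74 ± 0.083 (edgeR adjusted p = 1.8e-05), opposite to SGK1. The receptor gene NR3C1 had a log2 fold change of 0.11 and did not pass (edgeR adjusted p = 0.0994), except without GSK-A1 replicate 3.

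Of 6 genes of the osmotic response, 3 rose, 1 fell and 2 did not pass, with a median of 0.16. The transporters SLC6A6 (taurine), SLC38A2 (neutral amino acids) and SLC5A3 (inositol) rose by 0.44 ± 0.043, 0.32 and 0.20 (edgeR adjusted p = 3.55e-06, 2.23e-05 and 0.00396). AKR1B1, the aldose reductase that makes sorbitol, fell from 87.4 to 74.6 CPM, by 0.23 (edgeR adjusted p = 0.000713). NFAT5, the transcription factor of this response, had a log2 fold change of 0.10 and did not pass (edgeR adjusted p = 0.158). All 4 calls held with any 1 library left out.

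Of 5 tested genes (7 listed) whose products bind NDRG1 or are sorted with it, 1 rose and 2 fell, with a median of -0.04. RAB4A, a recycling GTPase, rose by 0.18 (edgeR adjusted p = 0.00981), with 20.53% of its 50-base stretches shared with SPHAR. CAV1 fell by 0.22 (edgeR adjusted p = 0.0235), and CDH1, at 0.821 CPM with DMSO, fell by 0.71 ± 0.23 (edgeR adjusted p = 0.0317). With 1 library left out, CAV1 was called only without GSK-A1 replicate 2, CDH1 only without GSK-A1 replicate 3, and RAB4A in every case but DMSO replicate 3, without which the list had 0 calls.

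The genes whose profile over the 6 libraries was most like that of NDRG1 were found by the root mean square distance of log2 CPM, each gene centred on its own mean, among 9824 genes with a mean of at least 10 CPM. The nearest were CLU (clusterin, a secreted chaperone; distance 0.0215), DUSP1 (0.0377), the stress-induced factor ATF3 (0.0517), the AP-1 member FOSL2 (0.0563) and the Krüppel-like factor KLF7 (0.0609). CLU averaged 266 ± 7.65 CPM with DMSO and 463 ± 15.9 CPM with GSK-A1 (SD, n = 3), so its log2 fold change was 0.80 beside 0.81 for NDRG1. The other 4 had log2 fold changes of 0.82 to 0.91.

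For SGK1, among 12815 genes with a mean of at least 1 CPM, the nearest were PGM2L1, a glucose bisphosphate synthase (0.0809), NIPAL1, a magnesium transporter (0.105), MTRF1L, a mitochondrial release factor (0.105), GADD45B, a stress-induced gene (0.105), and PDP1, a phosphatase of pyruvate dehydrogenase (0.109). These 5 genes were picked for likeness over the same libraries, so sharing the highest or lowest library with SGK1 follows largely from the choice. Like SGK1, they were highest in GSK-A1 replicate 2, the library that stood apart from its group. All but GADD45B, which was lowest in DMSO replicate 3, were also lowest in DMSO replicate 2. The distances for SGK1 were larger than for NDRG1, whose counts per library were also higher. All these profiles share the same libraries and the treatment difference, and the distances are a description.

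**Figure D5:**
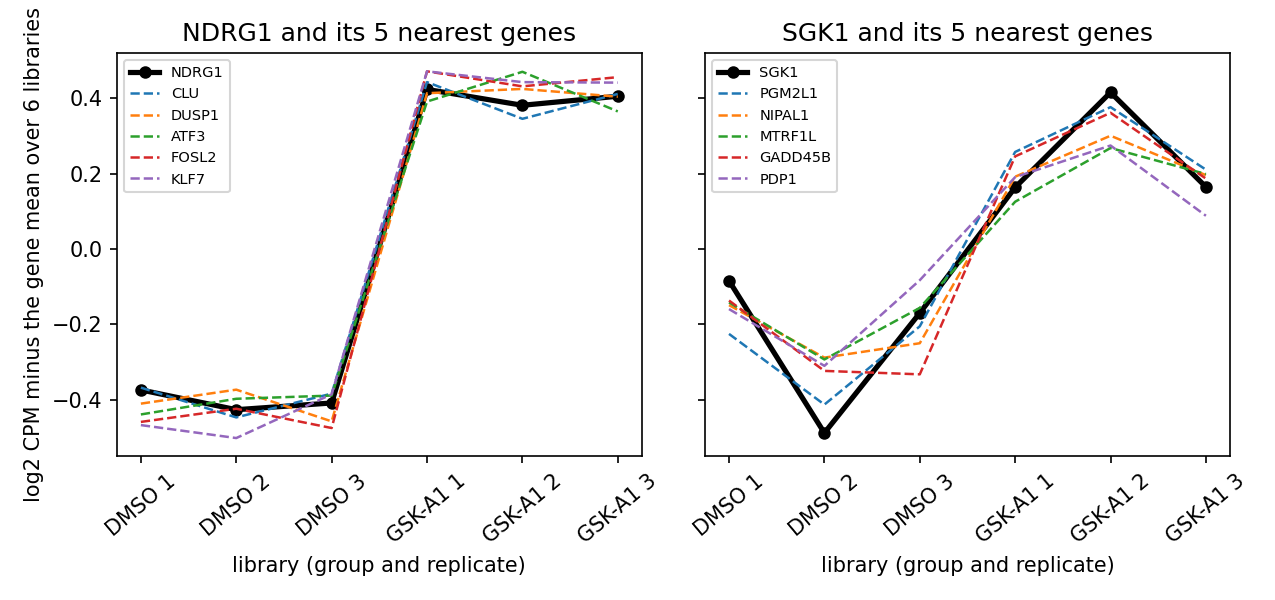
Log2 CPM minus each gene's mean over the 6 libraries (vertical axis) for NDRG1 with its 5 nearest genes (left) and SGK1 with its 5 nearest genes (right), by library on the horizontal axis; lines only join the values of a gene and replicates have no order. NDRG1 and its neighbours form a low and a high level, while SGK1 is lowest in DMSO replicate 2 and highest in GSK-A1 replicate 2.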

How the data were processed

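Raw counts per gene, in whole numbers and with no normalization, were deposited by the authors as 1 table of 63140 genes with a column for each of the 6 libraries. Per the labels' protocols, RNA from frozen cells was made into libraries with a TruSeq stranded kit and sequenced on a HiSeq instrument, and all libraries carry the same lane label. The submitters' processing notes name cutadapt 5.1, STAR 2.7.11b, featureCounts, Subread 2.1.1, DESeq2 1.38.0 and the build GRCh38.p13. The annotation release and the strand setting are not given in the sources used here.

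Groups came from the sample titles. Counts were analysed with edgeR 4.0.16 in R 4.3.3: filterByExpr (smallest count 10, smallest total 15), TMM factors, robust quasi-likelihood F test and Benjamini-Hochberg adjustment over 16754 genes, called at an adjusted p under 0.05. The common biological coefficient of variation was 4.06%. Standard errors are the log2 coefficient divided by the root of its F statistic. Alternatives used DESeq2 1.42.0, limma-voom (limma 3.58.1), other factors and filters, a GC trend (loess, span 0.3), the replicate number as a block and fits without 1 library. Code was tested on simulated data. Libraries carried no molecular identifiers.

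The 6 genes and the lists, written from general knowledge, were chosen with earlier results of these data known. Named from each list were at most 3 called genes per direction by smallest p, plus SGK2, RICTOR, PDPK1, NEDD4L, MYC, MYCN, HIF1A, EPAS1, EGR1, TFRC, NR3C1 and NFAT5. Some genes that this rule picks are counted in their lists but not reported here by name. The 5 genes nearest NDRG1 and SGK1 were named by distance. GENCODE 29 gave lengths, GC content (for 96.1% of tested genes) and positions, and promoter windows came from RefSeq.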

Additional observations from a re-analysis of the deposited data

How the results depend on the processing

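NDRG1, NDRG2 and SGK1 kept their direction and their side of the threshold in all 17 alternatives each, as did NDRG3 and SGK3, which did not pass in any. NDRG4 never passed, and its log2 fold change ranged from -0.078 to 0.26 with 1 library left out, changing sign without GSK-A1 replicate 1. PDPK1, not called in any setting, changed sign with upper-quartile factors (-0.018). The number of genes called, 3835, fell to 1871 at an adjusted p under 0.01 and ranged from 2163 to 4890 with 1 library left out; it was 2163, 2213 and 2206 without DMSO replicates 1, 2 and 3. Fewer samples or a stricter threshold were the construction of these settings. Fewer samples did not always go with fewer calls. The total rose to 4890 without GSK-A1 replicate 2, the library that stood apart from its group, and was 3805 without GSK-A1 replicate 3. Calls over the 8 lists, 34 in all, ranged from 21 (without DMSO replicate 3) to 45 (without GSK-A1 replicate 2). The difference in the NDRG1 share, 10.6 percentage points, was 13.7 with lengths from the union of exons and 8.93 with no length scaling. Lengths from the longest coding transcript, chosen after seeing the data, moved 2 genes in the order of levels. With the replicate number as a block, 4127 genes and 37 list members were called and no call changed among the 6 genes or the genes that the naming rule picked from the lists; ANKRD37 and the genes nearest NDRG1 and SGK1, other than DUSP1, were not followed singly. Deviations of libraries with the same number correlated at 0.0109, 0.019 and 0.0323, so the numbers were not taken as pairs; GSK-A1 replicate 1 correlated most with DMSO replicate 2 (0.0117), and every other library with its own number. Depth limits scarce genes such as NDRG4, SGK2 and MYCN.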
